A study of Mus musculus with 59 samples.

Results

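The transcripts of 29 mouse genes of peroxisome biogenesis and oxidation were followed in brown adipose tissue (BAT). The genes were listed by name, with earlier results of these data known, and all 29 were found among the 55341 genes of the count tables. They encode 13 peroxins (proteins that build the organelle), 2 fatty acid transporters, 7 enzymes of the oxidation cycle, 3 auxiliary enzymes, 2 acyltransferases, catalase, and the product of Pmp22. The last is the gene of peripheral myelin protein 22. The peroxisomal membrane protein of similar name is encoded by Pxmp2, so that Pmp22, although counted among the 29, is described apart from the enzymes and peroxins.

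The BAT came from 59 male C57BL/6J mice aged 8 to 12 weeks, 1 library per mouse, in 3 experiments. In the TH experiment every mouse received PTU, a drug that blocks thyroid hormone synthesis, in the food. WT mice were then taken as PTU controls or 3, 6, 12 or 24 h after a single injection of thyroid hormone (TH, a mixture of T3 and T4), with 4 mice in each of the 5 groups. BATKO mice of the same experiment were taken as PTU controls (n = 5) or 24 h after TH (n = 5). In the temperature experiment, for which the labels give 24 h, CTRL mice were kept at 4 °C (n = 3) or 30 °C (n = 4), and BATKO mice at 4 °C (n = 4) or 30 °C (n = 5). In the diet experiment, for which they give 3.5 days, the food was high in fat (HFD) or chow, for 4 and 4 CTRL mice and for 3 and 2 BATKO mice. The genetic change behind the BATKO label, and the genotype of CTRL mice, are not given in the sources used here. All samples are whole tissue, so that fewer cells of a type and less RNA per cell cannot be told apart.

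Peroxisomes shorten very long-chain, branched and dicarboxylic fatty acids that mitochondria do not take directly. Enzymes made in the cytosol are carried to the organelle by the receptors PEX5 and PEX7, dock at PEX13 and PEX14, and the receptors are then ubiquitinated and pulled back out for reuse. Each turn of the oxidation cycle gives hydrogen peroxide, which catalase removes, and the shortened acyl groups leave the organelle as carnitine esters. Peroxisomes are abundant in brown fat, and the tissue is known to gain more of them in the cold. TH acts on transcription through nuclear receptors that heterodimerise with RXR.

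Values are CPM (each count over the scaled total of its library), scaled with TMM normalization factors, and differences are log2 fold changes ± standard error (SE), with the adjusted p of edgeR's quasi-likelihood test. A gene was called past an adjusted p of 0.05, over all genes tested. Depth ran from 7805938 to 14615534 counts in WT mice, from 13593987 to 18073627 in the BATKO mice of the TH experiment, and from 7612059 to 12887313 in the other experiments. Summed markers of brown adipocytes such as Ucp1 and Cidea were detected in every group. They stood at 7080.0 to 9320.4 CPM in WT mice on PTU and at 1940.5 to 3025 CPM in BATKO mice on PTU.

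WT and BATKO mice on PTU stood apart across the transcriptome. Of the 14178 genes tested, 59.8% had no overlap between the 4 WT and the 5 BATKO mice. Among the 29 genes, 17 did not overlap, which is 58.6% and near the share of all genes. In BATKO mice, Pex2, Pex3, Pex7, Pex11a, Pex13, Pex19, Abcd2, Decr2, Crat, Crot and Pmp22 were lower, and Pex6, Pex26, Acox3, Acaa1a, Acaa1b and Scp2 higher. Crat (carnitine acetyltransferase) had 1058, 1147, 1188 and 1235 CPM in WT and 377, 414, 429, 552 and 562 CPM in BATKO mice on PTU. No test was made of these levels, and responses to TH were compared within each genotype. Between BATKO and CTRL mice of the other experiments, edgeR called 0.00754% of all genes at 30 °C and 0% on chow. The labels number the WT and BATKO mice of the TH experiment in separate series and give no batch. Genotype and any separate handling of these mice cannot be told apart, also in the differences of response below.

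Levels of different genes can only be set side by side per length of exons, as CPM per kilobase (kb). In WT mice on PTU the highest level was that of Cat (catalase), with 483 ± 49.3 CPM per kb (SD, n = 4). It was followed by Crat with 215 ± 14 and by Phyh, which starts the breakdown of phytanic acid, with 159 ± 11.3. These 3 levels did not overlap with each other or with the next gene. The lowest was that of Pex26, the membrane anchor of the export ATPase, with 0.709 ± 0.127 CPM per kb, which overlapped with Acox2 at 0.764 ± 0.268. Over the whole order, 19 of the 28 pairs of neighbours overlapped between mice, so that their order is not firm. In CTRL mice at 30 °C, Phyh (194 ± 24.3 CPM per kb) and Cat (145 ± 17.1) led and overlapped, and 23 of 28 pairs of neighbours overlapped. On chow this was so for 15 of 28 pairs. The 2 acyl-CoA oxidases of the list, Acox2 and Acox3, act on branched substrates and were both near the low end.

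**Figure D1:**
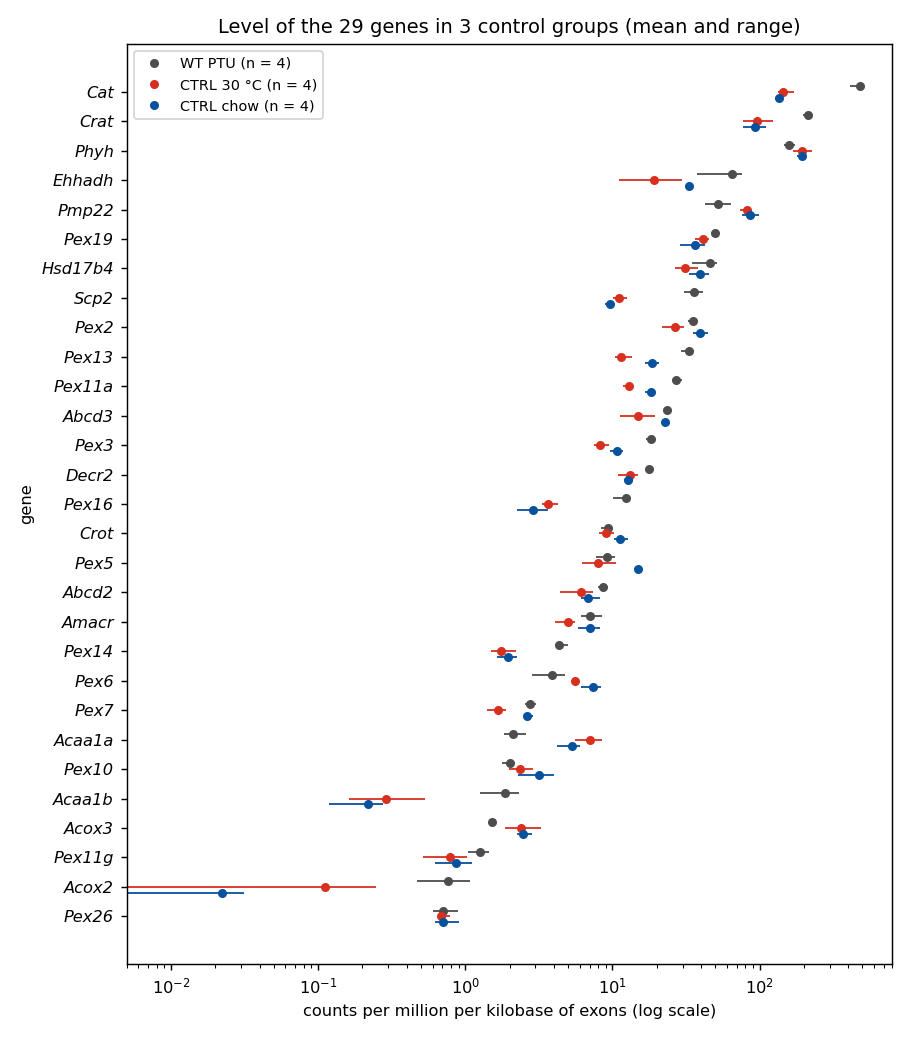
Level of each of the 29 genes per kilobase of exons (log scale) in WT mice on PTU, CTRL mice at 30 °C and CTRL mice on chow, with 4 mice in each group. Points are means and lines run from the lowest to the highest mouse (where a mouse was at 0, the line runs to the left edge). Cat, Crat and Phyh have the highest means in each group. The lowest are Pex26 and Acox2 in WT mice on PTU, and Acaa1b and Acox2 in CTRL mice at 30 °C and on chow.

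The first comparison asked how the genes responded to TH in hypothyroid WT mice. The response went both ways. Over the 4 times, 8 genes were called higher at one time or more (Abcd3, Acaa1a, Acox3, Acaa1b, Amacr, Pex2, Pex10 and Pex26), and 11 lower (Pex13, Pex3, Pex16, Pex19, Cat, Scp2, Ehhadh, Hsd17b4, Crat, Abcd2 and Acox2). Over all genes tested, 24% were called higher and 23.3% lower at one time or more. None of the 29 was called in both directions. At 3 h, 3 of the 29 were higher and 1 lower, where 9.19% of all genes tested were called (5.1% higher, 4.09% lower). At 6 h 6 were higher and 1 lower, where 23% of all genes were called (12.1% higher, 10.9% lower). At 12 h 8 were higher and 4 lower, where 25.7% of all genes were called (13.6% higher, 12.1% lower). At 24 h 4 were higher and 9 lower, where 32.7% of all genes were called (17.2% higher, 15.5% lower). The median log2 fold change of the 29 genes at 24 h was -0.13, and that of all genes 0.01.

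**Figure D2:**
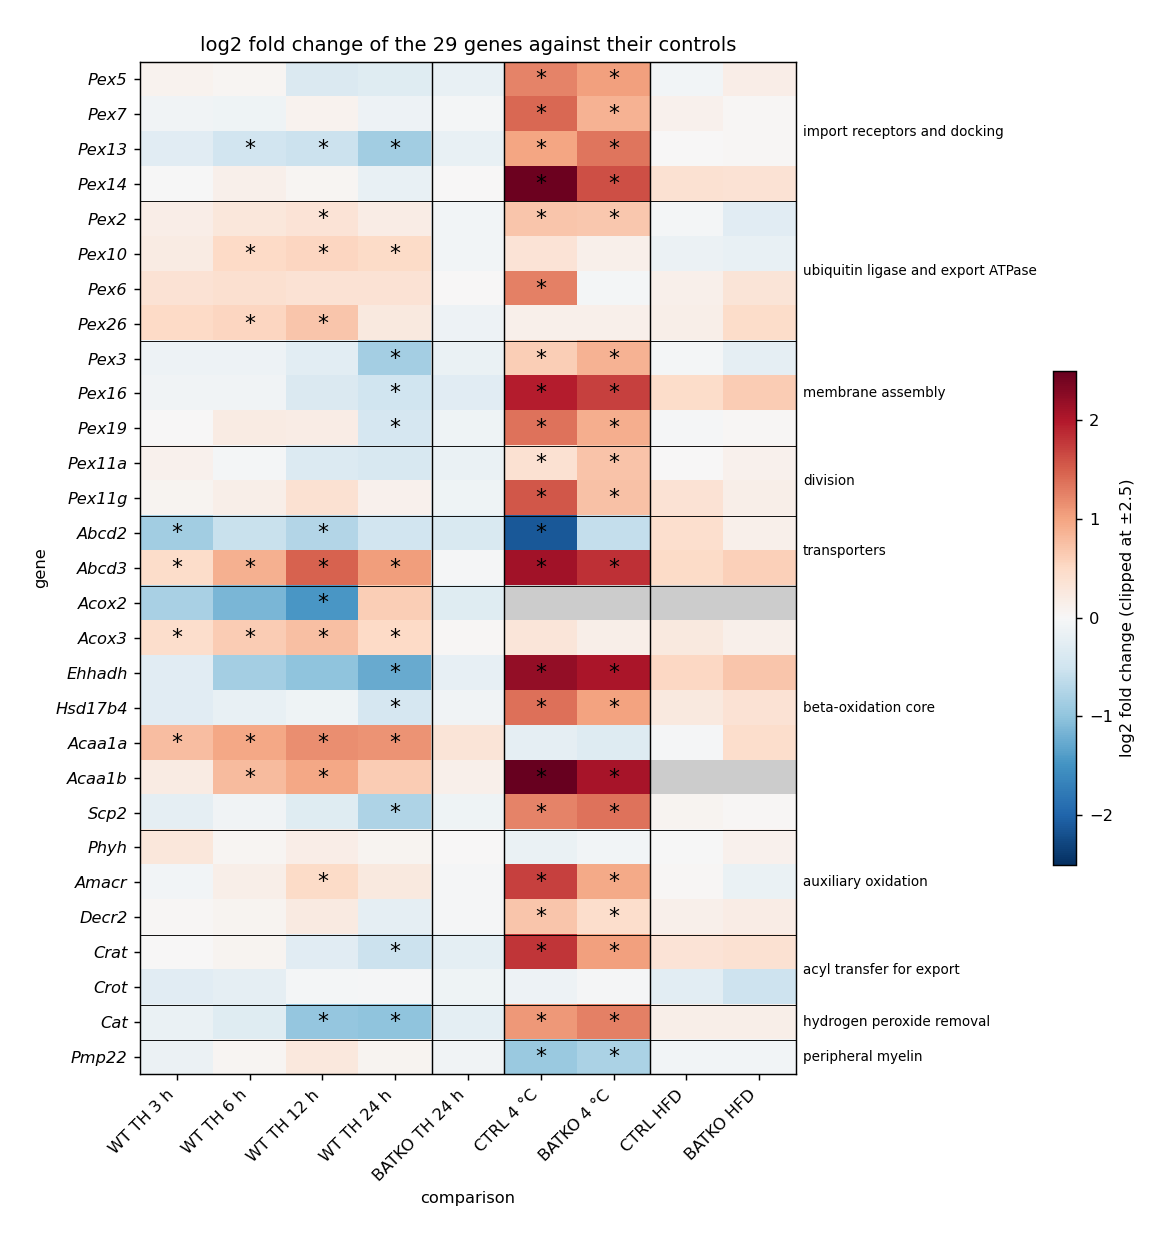
log2 fold change of the 29 genes (rows, grouped by role) against their controls in 9 comparisons (columns), with red for higher and blue for lower, colours limited to ±2.5, and an asterisk for an adjusted p under 0.05; grey marks genes below the count limit. Asterisks are mixed in direction after TH in WT mice, absent in BATKO mice after TH and in both diet columns, and mostly red in the cold.

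Among the transporters, Abcd3 was the gene with the lowest adjusted p at 6, 12 and 24 h. It encodes PMP70, which brings long-chain and branched acyl-CoA into the peroxisome. The mice had 148, 154, 156 and 163 CPM on PTU, 183, 217, 224 and 243 at 3 h, 276, 290.4, 301 and 304 at 6 h, 397, 413, 432 and 479.7 at 12 h, then 306, 319, 322 and 335 at 24 h. Every treated mouse was above every control, and the 12 h mice were the highest of all. The log2 fold change was 0.46 ± 0.09, adjusted p = 0.00276 at 3 h, 1.48 ± 0.09, adjusted p = 3.66e-10 at 12 h and 1.04 ± 0.09, adjusted p = 3.98e-08 at 24 h. Abcd2, a transporter of very long-chain acyl-CoA, had 47.4, 50.3, 53.2 and 55.8 CPM on PTU and 19.2, 29, 32 and 34.2 CPM at 3 h, with no overlap. Its change was -0.88 ± 0.23, adjusted p = 0.0214 at 3 h and -0.74 ± 0.24, adjusted p = 0.0238 at 12 h, and it was not called at 6 h (-0.56 ± 0.23, adjusted p = 0.0877) or 24 h (-0.49 ± 0.23, adjusted p = 0.116). The call at 3 h was lost without mouse 2 of the PTU group (adjusted p up to 0.0757 over the mice left out) and without mouse 11 of the 3 h group, and that at 12 h without mouse 2 of the PTU group or mouse 21 or 23 of the 12 h group (up to 0.0759).

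In the oxidation cycle, Acaa1a and Acox3 were higher at all 4 times. With Abcd3 these are 3 of the 29 genes, and 3.15% of all genes tested were called higher at all 4 times. Acaa1a, a thiolase of the last step, had 8.13, 8.62, 8.86 and 11.5 CPM on PTU and 14.4, 14.6, 16.3 and 19.7 CPM at 3 h. At 6 h it had 15.5, 17.6, 19.2 and 21.5 CPM, at 12 h 17.3, 19.9, 21.8 and 23.7 CPM and at 24 h 17.9, 19.3, 19.7 and 24 CPM. No treated mouse overlapped with a control at any time, and the log2 fold change went from 0.78 ± 0.14 at 3 h to 1.12 ± 0.14 at 24 h (adjusted p = 4.48e-06). Acaa1a and its neighbour Acaa1b share up to 98.7% of their transcript sequence where they align, so that reads may be split between them. Acaa1b itself was called at 6 h (0.8 ± 0.25, adjusted p = 0.0278) and 12 h (0.96 ± 0.26, adjusted p = 0.00799). The 6 h call was lost without mouse 3 or 4 of the PTU group or mouse 13, 15 or 17 of the 6 h group (adjusted p up to 0.0965). Acox3 is an oxidase of branched acyl-CoA. It had 16.9, 17.1, 17.8 and 18.2 CPM on PTU, 22.2, 22.9, 24.1 and 27.5 at 3 h, 23.4, 26, 28.4 and 31.5 at 6 h, 24.6, 24.9, 33.5 and 33.7 at 12 h, then 22.1, 23.8, 25.2 and 27.4 at 24 h, again with no overlap. Its log2 fold change was 0.75 ± 0.12, adjusted p = 8.83e-05 at 12 h and 0.49 ± 0.12, adjusted p = 0.00331 at 24 h, and the call at 3 h (0.45 ± 0.12, adjusted p = 0.0225) was lost in 3 of the 20 fits that left out 1 mouse (2 and 3 of the PTU group, and 8 of the 3 h group). Exons of Acox3 overlap with an antisense gene, and the strand setting of the counting is not given in the sources used here.

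Other steps of the cycle were lower at 24 h. Scp2 encodes a thiolase for branched chains and a lipid carrier. It had 107, 117, 130.4 and 144 CPM on PTU, 101, 104, 107 and 123 at 3 h, 107, 111, 125 and 133 at 6 h, 80.5, 97.6, 98.3 and 124 at 12 h, then 69.3, 70.3, 73 and 78.2 at 24 h. Only the 24 h mice lay below every control (-0.78 ± 0.12, adjusted p = 5.05e-05). Scp2 shares 99.6% of 1371 aligned bases with the pseudogene Scp2-ps2, so that its counts are uncertain. Hsd17b4, the bifunctional enzyme for branched and very long chains, changed by -0.42 ± 0.13, adjusted p = 0.0193, and the call was lost without mouse 2 or 3 of the PTU group or mouse 27 or 28 of the 24 h group (adjusted p up to 0.0712). Ehhadh, the bifunctional enzyme for straight and dicarboxylic chains, changed by -1.25 ± 0.44, adjusted p = 0.0337, with 112, 212, 225 and 228 CPM on PTU and 24, 36.1, 81.9 and 183 CPM at 24 h. The Ehhadh groups overlapped, and leaving out 1 mouse (2, 3 or 4 of the PTU group, or 24, 26 or 28 of the 24 h group) ended the call, with an adjusted p up to 0.102. Over the 20 fits without 1 mouse, the log2 fold change of Ehhadh ran from -2.03 to -0.95. Acox2, an oxidase of bile acid intermediates, was lower at 12 h (-1.45 ± 0.49, adjusted p = 0.0335), at a level of 1.73 to 3.99 CPM on PTU, and 5 of the 20 fits without 1 mouse lost that call (2 and 5 of the PTU group, 19, 21 and 23 of the 12 h group). At 24 h its value was on the other side of 0 and not called (0.62 ± 0.41, adjusted p = 0.261).

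Cat and Crat, the most abundant of the 29 per length in these controls, fell late. Cat had 1069, 1314, 1321 and 1343 CPM on PTU, 884, 1141, 1166 and 1357 at 3 h and 989, 999, 1068 and 1082 at 6 h. It then had 543, 549, 692 and 784 CPM at 12 h and 544, 585, 697 and 698 CPM at 24 h, below every control. The log2 fold change of Cat was -0.97 ± 0.14, adjusted p = 2.02e-05 at 12 h and -1.0 ± 0.14, adjusted p = 1e-05 at 24 h. Crat, the carnitine acetyltransferase, had 1058, 1147, 1188 and 1235 CPM on PTU, 1082, 1139.8, 1213 and 1312 at 3 h, 1167, 1206, 1211 and 1301 at 6 h, 769, 966, 993 and 1059.6 at 12 h, then 613, 753, 815 and 998 at 24 h. The 24 h mice were below the controls (-0.54 ± 0.13, adjusted p = 0.00202). Crot, the octanoyltransferase, was not called at any time, nor were Phyh and Decr2. Amacr, the racemase of branched acyl-CoA, was called at 12 h (0.47 ± 0.14, adjusted p = 0.0139), a call lost without mouse 4 of the PTU group or mouse 19 of the 12 h group.

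Of the peroxins, 1 of 4 import and docking genes and 3 of 3 membrane assembly genes were called lower at 24 h. Pex13, a subunit of the docking complex, had 136, 154, 159 and 165 CPM on PTU, 109, 128, 134 and 139.8 at 3 h, 98.5, 113, 117 and 121 at 6 h, 93, 97.4, 104 and 123 at 12 h, then 79.8, 84.5, 85.1 and 86.5 at 24 h. Its group means fell at each later time, and the 6, 12 and 24 h mice did not overlap with the controls. The log2 fold change of Pex13 was -0.47 ± 0.11, adjusted p = 0.003 at 6 h and -0.87 ± 0.11, adjusted p = 2.48e-06 at 24 h. Pex3, which anchors new membrane proteins, had 80.8, 85.4, 88.4 and 92.1 CPM on PTU, 68.5, 82.3, 85.9 and 87.5 at 3 h, 74.1, 76.9, 82.2 and 87.8 at 6 h, 63.2, 66.7, 77.3 and 79.1 at 12 h, then 43.8, 45.3, 48.9 and 55.5 at 24 h. The 12 h and 24 h mice lay below every control, and the gene was called at 24 h only (-0.84 ± 0.10, adjusted p = 2.69e-06). Its partners changed at 24 h by -0.43 ± 0.11, adjusted p = 0.00573 (Pex19, the chaperone of membrane proteins) and -0.5 ± 0.18, adjusted p = 0.0426 (Pex16, their receptor on the endoplasmic reticulum), the latter lost in 6 of 20 fits without 1 mouse (2, 4 and 5 of the PTU group, 24, 26 and 28 of the 24 h group).

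The peroxins called higher belong to the ubiquitin ligase and the export ATPase. Pex10, a ligase subunit, was higher at 6 h (0.5 ± 0.15, adjusted p = 0.0194), 12 h (0.53 ± 0.15, adjusted p = 0.0133) and 24 h (0.47 ± 0.15, adjusted p = 0.0208). The 6 h call was lost without mouse 2 of the PTU group or mouse 15 or 17 of the 6 h group, and the 24 h call without mouse 2 of the PTU group or mouse 26 of the 24 h group. Pex26 was higher at 6 h (0.55 ± 0.16, adjusted p = 0.0182) and 12 h (0.69 ± 0.16, adjusted p = 0.0035), and Pex2, another ligase subunit, at 12 h (0.34 ± 0.12, adjusted p = 0.0446). The 6 h call of Pex26 was lost without mouse 5 of the PTU group or mouse 12 of the 6 h group. The call of Pex2 was lost in 11 of the 20 fits without 1 mouse, which left out each PTU mouse, each 12 h mouse, or mouse 12, 15 or 17 of the 6 h group (adjusted p up to 0.11). Pex6, the ATPase itself, was not called at any time. The import receptors Pex5 and Pex7, the docking subunit Pex14, and Pex11a and Pex11g of peroxisome division were not called either. Exons of Pex3, Pex13 (by 2 bases), Pex14, Pex16, Pex26, Pex11g, Acaa1a, Acaa1b, Crat and Crot, like those of Acox3, overlap with genes on the opposite strand, so that their counts may hold reads of those genes.

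Of 5 markers of any adipocyte (Adipoq, Plin1, Fabp4, Pparg and Cebpa), WT mice had 0 called after 3 h, 1 lower after 6 h, 5 lower after 12 h and 4 lower after 24 h, with 0 higher throughout. Their sum was at 8359 to 9535 CPM in WT mice on PTU, at 4906 to 6534 CPM at 12 h and at 4135 to 4379.7 CPM at 24 h. Of the 7 brown adipocyte markers, 3 were higher and 1 lower at 3 h, 4 were higher at 6 h and 3 at 12 h. At 24 h 1 was higher and 3 were lower, and their sum was at 9661 to 17401 CPM at 24 h, above that of every control. No marker of either list was at 0. In BATKO mice 0 of these markers were called after TH, and the 24 h response of 4 of the 5 markers of any adipocyte and 1 of the 7 brown adipocyte markers differed between genotypes. Of 5 red blood cell markers, 2 were higher at 3 h and 0 called later, with a sum of 180.0 to 279.8 CPM on PTU and 199 to 1254 CPM at 3 h. Of 5 endothelial markers, 1 was higher at 6 h, 1 higher and 1 lower at 12 h, and 2 higher and 1 lower at 24 h. The other lists (fibroblast and progenitor, macrophage, Schwann cell, mural cell and skeletal muscle) had 1 marker or none called at each time, and the lymphocyte markers were below the count limit. The part of these lists in the results above was not tested.

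The second comparison asked whether the response at 24 h depended on the BATKO genotype. In BATKO mice, edgeR called 0 of the 29 genes and 0% of the 14178 genes tested. DESeq2 also called 0. Before adjustment 0 of the 29 and 673 of all genes had a p under 0.05. The log2 fold changes of the 29 in BATKO mice lay between -0.39 (Abcd2) and 0.32 (Acaa1a). Of the 13 genes called at 24 h in WT mice, 13 had a change nearer to 0 in BATKO mice, and 11 the same sign. Of all 4222 genes called at 24 h in WT mice and tested in both fits, 99.8% had a change nearer to 0 in BATKO mice and 68.6% the same sign. Choosing genes by their WT call favours a smaller change in the other genotype. The difference between the responses itself was called for 6 of the 29 genes, where 12.3% of all genes tested were called (5.12% higher, 7.15% lower). All 6 were among those 13.

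In BATKO mice the PTU and TH groups overlapped for all 6 genes. For Pex13 the overlap rested on mouse 15 of the TH group at 94.1 CPM. The others of that group, at 56.2 to 63.8 CPM, lay below every BATKO mouse on PTU. Abcd3 had 106, 119, 134, 162 and 209 CPM on PTU and 110.2, 129, 138, 152 and 186 CPM after TH, and the BATKO response minus the WT response was -1.08 ± 0.20 (adjusted p = 0.0008). Pex3 had 34.7, 36.9, 38.8, 38.9 and 39.1 CPM on PTU and 27.3, 32, 33, 37.8 and 38.6 CPM after TH. The difference in response was 0.68 ± 0.14, adjusted p = 0.00222. The BATKO mice on PTU already lay below the WT mice taken 24 h after TH for Pex3. For Pex13 and Acaa1a the BATKO mice on PTU overlapped with those WT mice, and for Abcd3, Cat and Scp2 they did not. For Pex13 the difference was 0.69 ± 0.17, adjusted p = 0.00622, with 72.5, 73.7, 74, 75.9 and 81.9 CPM on PTU and 56.2, 56.7, 63.1, 63.8 and 94.1 CPM after TH in BATKO mice. It was 0.76 ± 0.19, adjusted p = 0.00781 for Cat, with 836, 911, 919, 962 and 1237 CPM on PTU and 706, 775, 793, 872 and 981 CPM after TH. Scp2 had 199.6, 221, 230.4, 235 and 256 CPM on PTU and 159, 181, 202, 238 and 279 CPM after TH. It differed by 0.67 ± 0.19, adjusted p = 0.0177 and lost the call without mouse 3 of the WT PTU group (adjusted p = 0.059). Acaa1a, with 18.4, 19.1, 20.1, 22 and 35.4 CPM on PTU and 20.3, 22.6, 29.8, 35 and 35.8 CPM after TH, differed by -0.8 ± 0.25, adjusted p = 0.0367, and 7 of the 30 fits without 1 mouse lost the call (2, 3 and 5 of WT PTU, 26 of WT 24 h, 4 of BATKO PTU, 10 and 15 of BATKO 24 h). The direction of all 6 differences was that of a smaller response in BATKO mice. For Acaa1a, Pex3, Pex13 and Scp2 the levels on PTU differed between genotypes without overlap, as given above, and the part of that in the difference of responses was not tested. Acox3 (-0.46 ± 0.17, adjusted p = 0.0785) and Pex10 (-0.55 ± 0.22, adjusted p = 0.0914) were on the same side and not called.

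**Figure D3:**
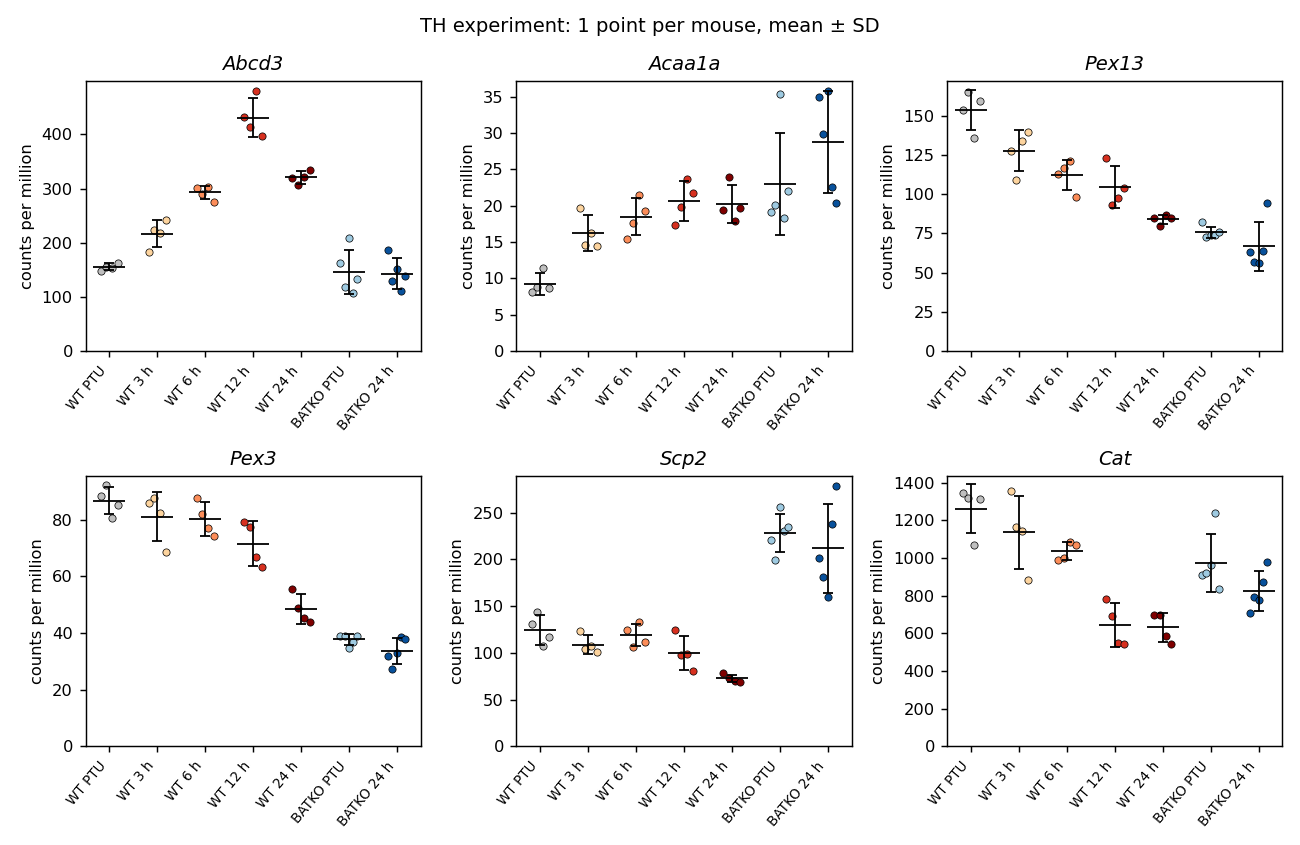
CPM of 6 genes whose 24 h response differed between genotypes, in the 7 groups of the TH experiment, with 1 point per mouse and the mean ± SD (4 WT or 5 BATKO mice per group). WT mice at 24 h lie above their controls for Abcd3 and Acaa1a and below them for Pex13, Pex3, Scp2 and Cat, while the BATKO groups on PTU and 24 h after TH overlap in all 6.

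The promoters of these 6 genes are shown because their 24 h response to TH differed between the WT and BATKO mice. Each runs from 250 bases before to 50 bases after a RefSeq start site on GRCm38.p6, on the strand of the gene. Capitals mark a nuclear receptor half-site (AGGTCA) or a cAMP response element (TGACGTCA), searched on both strands. The windows are chr11:23665834-23666133 (minus strand) for Pex13, chr10:13553093-13553392 (minus) for Pex3, chr3:121815253-121815552 (minus) for the first of 2 starts of Abcd3, chr9:119341044-119341343 (plus) for Acaa1a, chr4:108118498-108118797 (minus) for Scp2 and chr2:103485104-103485403 (minus) for Cat.
Pex13: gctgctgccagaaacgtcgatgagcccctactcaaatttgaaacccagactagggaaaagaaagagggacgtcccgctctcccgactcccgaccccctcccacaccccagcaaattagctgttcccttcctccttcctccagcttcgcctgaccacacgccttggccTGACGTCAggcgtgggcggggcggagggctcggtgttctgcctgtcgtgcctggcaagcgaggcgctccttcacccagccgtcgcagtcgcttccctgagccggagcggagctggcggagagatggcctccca
Pex3: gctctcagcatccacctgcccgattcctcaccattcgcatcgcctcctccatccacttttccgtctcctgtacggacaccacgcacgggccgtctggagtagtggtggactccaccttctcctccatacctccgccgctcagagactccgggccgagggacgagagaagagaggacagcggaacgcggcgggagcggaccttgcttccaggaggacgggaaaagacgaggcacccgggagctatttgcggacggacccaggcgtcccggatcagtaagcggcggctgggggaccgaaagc
Abcd3: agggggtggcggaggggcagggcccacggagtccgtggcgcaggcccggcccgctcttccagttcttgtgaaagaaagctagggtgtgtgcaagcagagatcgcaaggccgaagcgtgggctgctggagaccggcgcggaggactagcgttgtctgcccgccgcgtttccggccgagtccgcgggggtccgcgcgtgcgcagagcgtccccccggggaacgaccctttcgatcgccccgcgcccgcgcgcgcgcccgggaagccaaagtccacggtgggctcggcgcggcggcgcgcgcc
Acaa1a: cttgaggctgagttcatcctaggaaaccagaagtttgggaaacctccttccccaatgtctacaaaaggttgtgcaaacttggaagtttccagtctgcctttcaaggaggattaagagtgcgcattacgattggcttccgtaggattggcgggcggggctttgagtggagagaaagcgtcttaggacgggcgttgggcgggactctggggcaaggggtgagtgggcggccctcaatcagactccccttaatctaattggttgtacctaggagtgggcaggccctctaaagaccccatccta
Scp2: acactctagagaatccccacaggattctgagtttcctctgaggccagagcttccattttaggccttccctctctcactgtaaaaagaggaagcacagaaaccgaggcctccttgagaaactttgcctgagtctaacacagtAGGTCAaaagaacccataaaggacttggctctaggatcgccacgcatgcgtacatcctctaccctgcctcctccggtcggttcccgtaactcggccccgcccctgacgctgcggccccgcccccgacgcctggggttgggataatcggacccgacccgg
Cat: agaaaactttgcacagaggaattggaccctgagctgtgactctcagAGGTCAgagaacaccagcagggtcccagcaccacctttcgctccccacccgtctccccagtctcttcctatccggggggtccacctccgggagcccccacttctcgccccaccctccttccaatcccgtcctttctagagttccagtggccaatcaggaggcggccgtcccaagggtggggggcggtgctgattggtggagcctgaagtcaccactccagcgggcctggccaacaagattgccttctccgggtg
Pex13 held the cAMP response element 83 bases before the RefSeq start shown, Scp2 a half-site at 109 bases and Cat a half-site at 204 bases before it. The Scp2 gene runs from 108043839 to 108144998 on the minus strand, so that the start shown for it lies inside the gene. The Acaa1a gene begins at 119339676 on the plus strand, also before its window. The windows of Pex3, Abcd3 and Acaa1a held neither. RefSeq promoters were found for 23 of the 29 genes, with 31 start sites (not for Pex2, Pex19, Abcd2, Hsd17b4, Amacr and Crat). The half-site was in 12.9% of these 31 promoters and in 16.3% of all 32851 promoters of the same length. The cAMP response element was in 6.45% of the 31 (Pex13 and Pex11g) and in 1.79% of all. Direct repeats of the half-site with 1 base (AGGTCANAGGTCA) or 4 bases (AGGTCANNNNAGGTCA) between them were in 0 of the 31, and in 0.0396% and 0.0152% of all promoters. These are matches of letters only, and each direct repeat holds the half-site.

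The third comparison asked how the genes differed between the cold and thermoneutrality. At 4 °C, 20 of the 28 genes tested in CTRL mice were higher and 2 lower than at 30 °C, where 49.1% of all genes tested were called (26.5% higher, 22.6% lower). In BATKO mice 19 were higher and 1 lower, where 40.3% of all genes were called (21.4% higher, 18.9% lower). The median log2 fold change of the 28 genes was 1.16 in CTRL and 0.87 in BATKO mice, against -0.01 and -0.02 over all genes. The 19 genes called higher in BATKO mice were all among the 20 called in CTRL mice, which is 100% of the 19 and 95% of the 20. Of all genes, those called higher in both were 81.3% of the 2836 called higher in BATKO and 65.6% of the 3514 called higher in CTRL mice. Acox2 was below the count limit. Of the 7 brown adipocyte markers, 6 were higher in CTRL mice and 5 in BATKO mice. Their sum was at 673 to 2745 CPM at 30 °C and 17575 to 22838 CPM at 4 °C in CTRL mice, and that of the any-adipocyte markers (2 of 5 higher and 1 lower) at 4882 to 6098 and 9596 to 10350.4 CPM. In BATKO mice the sum of brown adipocyte markers was at 1636 to 3025 and 9577 to 17516 CPM. That of the any-adipocyte markers (2 of 5 higher and 1 lower) was at 4868 to 5819 and 9047 to 11491 CPM. Endothelial markers had 2 of 5 higher and 1 lower in CTRL mice, and 1 higher and 2 lower in BATKO mice. Mural cell markers had 2 of 5 higher and 1 lower in CTRL mice, and 1 higher and 1 lower in BATKO mice. Of 5 macrophage markers, 1 was lower in CTRL mice and 1 higher in BATKO mice. Skeletal muscle markers ranged from 0.639 to 4246 CPM at 30 °C and from 129 to 566 CPM at 4 °C in CTRL mice, and from 0.87 to 7584 and 5.08 to 1528 CPM in BATKO mice, with 0 of 5 called in either. Of 5 red blood cell markers, 3 were higher in the cold in each genotype, and their sum was at 177 to 333 CPM at 30 °C and 766 to 1711 CPM at 4 °C in CTRL mice, and at 182 to 494 and 771 to 1111 CPM in BATKO mice. Red blood cells are rich in catalase. The part of these in the results was not tested.

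Import and docking genes rose together, with 4 of 4 called in both genotypes. Pex14, the docking subunit that binds the loaded receptor, had the lowest adjusted p of the list in CTRL mice. It had 9.39, 9.76, 10.6 and 13.8 CPM at 30 °C and 46.4, 62.7 and 69.5 CPM at 4 °C in CTRL mice, and 11.7, 12.6, 13.4, 14.7 and 17.9 CPM at 30 °C and 36.1, 39.7, 47 and 49.6 CPM at 4 °C in BATKO mice. No cold mouse overlapped with a warm one. The log2 fold change was 2.45 ± 0.19, adjusted p = 7.74e-08 in CTRL and 1.61 ± 0.16, adjusted p = 2e-06 in BATKO mice. An antisense gene shares 1776 exonic bases with Pex14. Pex7, the receptor of the N-terminal targeting signal, had 17, 18.9, 22.1 and 23 CPM at 30 °C and 47.8, 58.2 and 59.1 CPM at 4 °C in CTRL mice (1.44 ± 0.14, adjusted p = 8.49e-07). In BATKO mice it had 18.8, 20.0, 21, 21.7 and 22.7 CPM at 30 °C and 30.1, 38, 41.4 and 42.6 CPM at 4 °C (0.87 ± 0.13, adjusted p = 5.91e-05). Pex5, the receptor of the C-terminal signal, changed by 1.24 ± 0.21 and 1.02 ± 0.19, and Pex13 by 1.0 ± 0.16 and 1.33 ± 0.14 in CTRL and BATKO mice.

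The membrane assembly genes were likewise higher in 3 of 3 cases in both genotypes. Pex19 had 139, 147, 168 and 174 CPM at 30 °C and 374, 409 and 418 CPM at 4 °C in CTRL mice (1.35 ± 0.13, adjusted p = 5.45e-07). In BATKO mice it had 147, 155, 172, 179.6 and 186 CPM at 30 °C and 279, 319, 333 and 334 CPM at 4 °C (0.91 ± 0.11, adjusted p = 1.33e-05). The cold and warm groups did not overlap in either genotype. Pex16 changed by 1.96 ± 0.24 and 1.72 ± 0.21, and Pex3 by 0.62 ± 0.18 and 0.88 ± 0.16. Of the division genes, Pex11g was higher by 1.55 ± 0.30 and 0.73 ± 0.26 and Pex11a by 0.39 ± 0.11 and 0.71 ± 0.10. Pex11a lost the call in CTRL mice without mouse 1 of the 4 °C group (adjusted p = 0.0744), and Pex11g lost that in BATKO mice in 5 of the 16 fits without 1 mouse (8 and 11 at 4 °C, 13, 15 and 16 at 30 °C; adjusted p up to 0.156). Of the ligase and ATPase genes, Pex2 was higher in both genotypes (0.69 ± 0.14 and 0.66 ± 0.12), Pex6 in CTRL mice alone by its call, and Pex10 and Pex26 in neither.

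**Figure D4:**
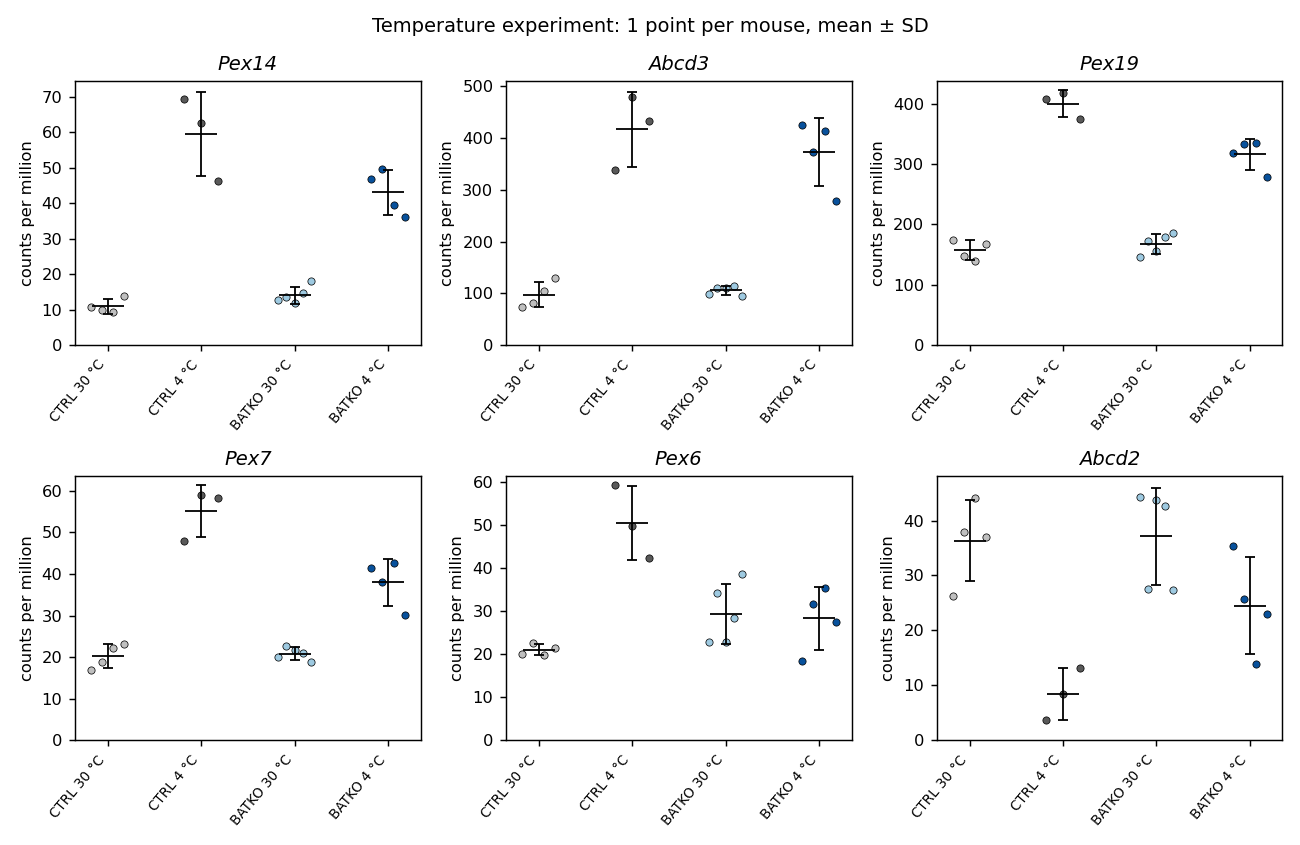
CPM of 6 genes in the 4 groups of the temperature experiment, with 1 point per mouse and the mean ± SD (3 to 5 mice per group). Pex14, Abcd3, Pex19 and Pex7 are higher at 4 °C in both genotypes, Pex6 is higher and Abcd2 lower at 4 °C in CTRL mice, and the BATKO mice at 4 °C and 30 °C overlap for these last genes.

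The transporters went in opposite directions in the cold in CTRL mice. Abcd3 had 74.5, 82, 105 and 129 CPM at 30 °C and 338, 433 and 480.4 CPM at 4 °C in CTRL mice, and 93.9, 97.9, 111, 111 and 114 CPM at 30 °C and 279, 374, 413 and 426 CPM at 4 °C in BATKO mice. Cold and warm mice did not overlap, and the log2 fold change was 2.09 ± 0.19, adjusted p = 4.69e-07 in CTRL and 1.82 ± 0.17, adjusted p = 1.32e-06 in BATKO mice. Abcd2 had 26.3, 37, 37.8 and 44.1 CPM at 30 °C and 3.61, 8.36 and 13.1 CPM at 4 °C in CTRL mice (-2.11 ± 0.37, adjusted p = 0.000189). In BATKO mice it had 27.4, 27.5, 42.7, 43.8 and 44.2 CPM at 30 °C and 13.8, 23, 25.7 and 35.5 CPM at 4 °C (-0.6 ± 0.30, adjusted p = 0.122), and the groups overlapped.

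In the oxidation cycle, 4 of the 6 genes tested were higher in the cold in each genotype. Ehhadh changed by 2.2 ± 0.49 and 2.04 ± 0.43, Hsd17b4 by 1.39 ± 0.15 and 1.0 ± 0.13, and Scp2 by 1.24 ± 0.31 and 1.35 ± 0.27 in CTRL and BATKO mice. Acaa1b had the largest fitted change (3.37 ± 0.40 and 2.05 ± 0.36), at 0.319 to 1.04 CPM at 30 °C and 3.44 to 9.59 CPM at 4 °C in CTRL mice. Its near copy Acaa1a was not called (-0.23 ± 0.22, adjusted p = 0.403 in CTRL mice), and neither was Acox3. Mouse 1 of the CTRL 4 °C group had 97.8 CPM of Ehhadh and 45.4 CPM of Scp2, below the other two mice of its group (291 and 395 CPM of Ehhadh, 105 and 123 CPM of Scp2). Without it, 21 of the 28 genes were called in CTRL mice.

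Among the other enzymes, Crat changed by 1.79 ± 0.21 in CTRL and 1.03 ± 0.18 in BATKO mice, Cat by 1.09 ± 0.18 and 1.26 ± 0.16, Amacr by 1.7 ± 0.18 and 0.94 ± 0.16, and Decr2, which reduces unsaturated intermediates, by 0.7 ± 0.16 and 0.43 ± 0.15. Decr2 in BATKO mice lost its call without mouse 8 or 11 at 4 °C or mouse 17 at 30 °C (adjusted p up to 0.136). Phyh and Crot were called in neither genotype. Pmp22, the myelin gene, was lower in the cold in both (-0.92 ± 0.22, adjusted p = 0.00226 and -0.79 ± 0.19, adjusted p = 0.00349). Of 5 Schwann cell markers, 2 were higher in CTRL and 1 in BATKO mice and 0 were lower, and their sum in CTRL mice was at 106 to 131 CPM at 30 °C and 197 to 235 CPM at 4 °C. Of 5 fibroblast and progenitor markers, 2 were lower in CTRL and 1 in BATKO mice and 0 were higher. Their sum was at 249.6 to 352 CPM at 30 °C and 188 to 208 CPM at 4 °C in CTRL mice, without overlap, and at 233 to 284 and 217 to 345 CPM in BATKO mice, with overlap. The part of either list in the values of Pmp22 was not tested.

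Set side by side, the genes lower 24 h after TH were among those higher in the cold. These comparisons share no mice. All 9 genes lower in WT mice 24 h after TH were higher in CTRL mice at 4 °C (Pex13, Pex3, Pex16, Pex19, Ehhadh, Hsd17b4, Scp2, Crat and Cat). This is 100% of the 9 lower after TH and 45% of the 20 higher in the cold. It is to be read beside the 71.4% of all 28 genes that were higher in the cold, and a link between the responses was not tested. The calls of Pex16, Ehhadh and Hsd17b4 after TH were lost in some fits without 1 mouse, as given above. Over the 12541 genes tested in both, 389 were in this class, which is 20% of the genes lower at 24 h, 11.2% of those higher in the cold and 3.1% of all. Abcd2 and Acox2 were lower after TH at earlier times but not called at 24 h. In the cold Abcd2 was lower in CTRL mice, as was Pmp22, which was not called after TH, and Acox2 was not tested. Abcd3 was higher in both, and Pex10, Acox3 and Acaa1a after TH only by their calls. A further 10 genes were called higher in the cold and not called at 24 h, among them Pex14, Pex7 and Pex5.

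**Figure D5:**
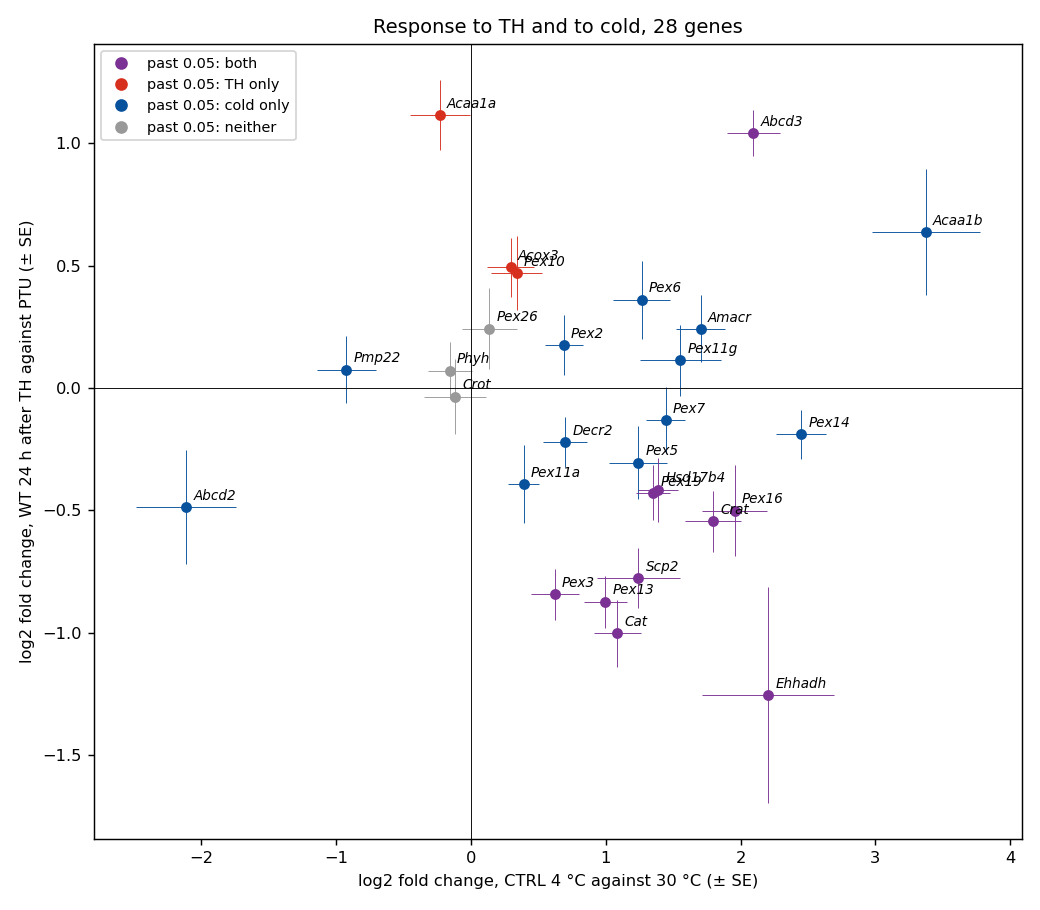
log2 fold change ± SE of the 28 genes tested in both comparisons, for CTRL mice at 4 °C against 30 °C (horizontal axis) and WT mice 24 h after TH against PTU (vertical axis); colours give the comparisons in which the adjusted p was under 0.05. The 9 genes called lower after TH lie at the lower right, called higher in the cold, and Abcd3 lies at the upper right.

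The effect of the BATKO genotype was then taken at each temperature. At 30 °C, 0 of the 28 genes were called by edgeR, where 0.00754% of all genes tested were called, and 3 of the 28 and 1209 of all 13267 genes had an unadjusted p under 0.05. The lowest adjusted p was 0.542 and was shared by these 3. Pex6, whose values by mouse stand in the next paragraph, had the largest change of them (0.49 ± 0.19), and the 5 BATKO mice lay above the 4 CTRL mice. The others were Pex13 (-0.33 ± 0.14), with 48.4, 49.8, 49.9 and 63.3 CPM in CTRL and 32.8, 38.3, 40.4, 45.9 and 52.9 CPM in BATKO mice, and Pex14 (0.38 ± 0.17), whose values are given above. DESeq2 called 0 as well. At 4 °C, 1 gene was called, where 2.16% of all genes were (0.957% higher, 1.2% lower). Abcd2 was higher in BATKO mice (1.55 ± 0.37, adjusted p = 0.0375), and the 4 BATKO mice lay above the 3 CTRL mice. The call was lost in 6 of the 16 fits without 1 mouse (1 and 2 of CTRL 4 °C, 20 of CTRL 30 °C, 7, 8 and 12 of BATKO 4 °C; adjusted p up to 0.142). Pex6 was next (-0.83 ± 0.21, adjusted p = 0.0504). With DESeq2, 6 genes were called at 4 °C, Abcd2 higher and Pex6, Pex7, Pex19, Amacr and Acaa1b lower.

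The difference between the cold responses was called for 1 gene, where 1.12% of all genes were called (0.317% higher, 0.807% lower). Pex6 had 19.8, 20.1, 21.5 and 22.6 CPM at 30 °C and 42.3, 49.8 and 59.4 CPM at 4 °C in CTRL mice. In BATKO mice it had 22.7, 22.9, 28.4, 34.3 and 38.6 CPM at 30 °C and 18.5, 27.6, 31.7 and 35.5 CPM at 4 °C. CTRL mice were higher in the cold without overlap (1.27 ± 0.21, adjusted p = 0.000129), while the BATKO groups overlapped (-0.06 ± 0.19, adjusted p = 0.835). At 30 °C the BATKO mice already lay above every CTRL mouse, and the part of that in the difference of responses was not tested. The difference of -1.32 ± 0.28, adjusted p = 0.0367 was called in 4 of the 16 fits without 1 mouse and with DESeq2. The call was lost without mouse 1 or 2 of CTRL 4 °C, any mouse of CTRL 30 °C, mouse 7, 8 or 12 of BATKO 4 °C, or mouse 14, 16 or 17 of BATKO 30 °C (adjusted p up to 0.129). Pex14 was next (-0.84 ± 0.24, adjusted p = 0.0873). Of the 20 genes higher in the cold in CTRL mice, 15 had a smaller and 5 a larger log2 change in BATKO mice. The change was smaller in 88.4% of all 3514 genes so chosen, and the choice by the CTRL call favours this.

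In the diet experiment, edgeR called 0 of the 27 genes tested in CTRL mice on HFD, where 3.94% of all genes were called (1.89% higher, 2.04% lower). Before adjustment 6 of the 27 and 2802 of all 12932 genes had a p under 0.05. Abcd3 had 144, 146, 154 and 159 CPM on chow and 167, 173, 226 and 271 CPM on HFD, with every HFD mouse above every chow mouse (0.47 ± 0.14, adjusted p = 0.0653). Abcd2 had 36.2, 36.4, 40.2 and 49.1 CPM on chow and 50.8, 53.6, 55.2 and 58.3 CPM on HFD, also without overlap (0.43 ± 0.13, adjusted p = 0.0719). Both transporters passed with DESeq2. In BATKO mice, 0 of the 27 and 0.0696% of all genes (0.0309% higher, 0.0387% lower) were called on HFD, with 7 of the 27 and 1996 of all 12932 genes at an unadjusted p under 0.05, and 2 called by DESeq2 (Abcd3 higher and Crot lower). Abcd3 had 135 and 137 CPM on chow and 187, 210.3 and 214 CPM on HFD in these mice (0.59 ± 0.18, adjusted p = 0.164).

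BATKO and CTRL mice on HFD were compared last. For both diets and for the difference of the diet responses, edgeR called 0 of the 27 genes and 0% of all genes. On HFD 3 of the 27 and 691 of all 12932 genes had an unadjusted p under 0.05, and DESeq2 called 0 of the 27. The 3 shared an adjusted p of 0.884 with several others of the list. Pex5 had the lowest unadjusted p, with 40.4, 54.6, 59 and 69.2 CPM in CTRL and 65.2, 87.2 and 102 CPM in BATKO mice, and the groups overlapped (0.6 ± 0.17). Crot was next and did not overlap, with 45.3, 53, 53.6 and 54 CPM in CTRL and 36.1, 40.9 and 42.4 CPM in BATKO mice (-0.37 ± 0.11). The third was Pex2 (-0.27 ± 0.12), with overlap. Decr2, with the same adjusted p, had an unadjusted p above 0.05 (-0.13 ± 0.10), with 34.2, 35.9, 37.3 and 39.6 CPM in CTRL and 31.4, 34 and 35.4 CPM in BATKO mice. On chow 2 of the 27 and 1024 of all genes had an unadjusted p under 0.05, and for the difference of the diet responses 0 and 740. The BATKO chow group has 2 mice.

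A further 40 genes of the peroxisome were listed to set beside the 29, and 38 were tested. In WT mice, 3 h of TH left 1 higher and 1 lower, 6 h left 5 higher and 6 lower, 12 h left 11 higher and 3 lower, and 24 h left 6 higher and 11 lower. In BATKO mice 0 were called. Among those with the lowest adjusted p at 24 h were Acbd5, a tether to the endoplasmic reticulum (-0.93 ± 0.13, adjusted p = 1.06e-05), and Pecr, a reductase of enoyl-CoA (1.39 ± 0.19, adjusted p = 1.15e-05). The 24 h response of both differed between genotypes (Acbd5 0.74 ± 0.17, adjusted p = 0.00399, Pecr -0.97 ± 0.30, adjusted p = 0.0307). In the cold, 24 of the 38 were higher and 3 lower in CTRL mice, and 21 and 1 in BATKO mice. Of the 11 lower at 24 h, 8 were higher in the cold, which is 72.7% of the 11 and 33.3% of the 24, against 20% and 11.2% over all genes tested in both. These shares are to be read beside the list as a whole, with 24 of 38 higher in the cold and 11 of 38 lower at 24 h. A link between the responses was not tested. As background for these genes and for the regulators, 17.2% of all genes tested were called higher and 15.5% lower at 24 h, and 26.5% higher and 22.6% lower in the cold in CTRL mice.

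Of 8 regulators listed (3 PPARs, Rxra, Esrra, Prdm16, Ppargc1a and Ppargc1b), 3 were higher and 0 lower after 3 h of TH in WT mice, 4 higher and 1 lower after 6 h, 2 higher and 3 lower after 12 h, 3 higher and 1 lower after 24 h, and 5 were higher and 1 lower in the cold in CTRL mice. In BATKO mice 0 of the 8 were called after TH. The numbers in BATKO mice in the cold were 3 and 1. At 4 °C, 2 of the 8 were lower in BATKO than in CTRL mice, where 0 were higher.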

How the data were processed

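RNA of whole BAT was sequenced with 1 library per mouse. Per the labels and the study's methods, RNA was extracted with Trizol, libraries were made with a Lexogen SENSE total RNA kit and sequenced on an Illumina NextSeq, reads were aligned to mm10 with Bowtie2 (2.3.2.2 in the submitters' processing notes), and poorly aligned reads were removed. The authors deposited raw counts per gene from htseqcount. The annotation and strand setting of the counting are not given in the sources used here. From the deposited counts, TMM factors and CPM were computed per experiment (edgeR 4.0.16, limma 3.58.1, R 4.3.3). Genes with a mean normalized count above 10 were tested with edgeR's quasi-likelihood test, 1 mean per group, over the 20 WT mice for the time course and otherwise over all mice of an experiment, p-values being adjusted by Benjamini-Hochberg and called past 0.05. The scripts were tested on simulated data. The SE was taken from the F statistic. Depth was 7612059 to 18073627 counts per mouse, of which 39.2% to 55.7% were mitochondrial, so that precision is lowest for genes of few CPM. The labels name separate mice as replicates, and no batch. Alternatives were DESeq2 1.42.0, RLE scaling, no filter, leaving out mitochondrial genes, fits of only the groups compared, and leaving out each mouse. The members, lists and tests were chosen with earlier results of these data known. Values in every mouse are given for the genes with the lowest adjusted p: 8 over the WT course, 4 in the cold in CTRL mice, and 2 in each of the 24 h and cold differences of response, the genotype comparisons at 4 °C, at 30 °C and on HFD, and HFD against chow in CTRL mice. Adjusted p were tied at 30 °C and on HFD, where the order of names had decided, so the genes of lowest unadjusted p were added. These are Pex6 at 30 °C and Pex5 on HFD with values by mouse, and Pex2 on HFD by its fold change only. Of the listed genes outside the 29, those with the lowest adjusted p at 24 h are named, except for an item that is not reported here. Other values per mouse were added after the results were seen. Exon lengths and overlaps are from GENCODE on GRCm38, and promoters from RefSeq.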

Additional observations from a re-analysis of the deposited data

Results flagged for a closer look

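The genes chosen by their lowest adjusted p were searched for a mouse apart, each in the experiment that chose it. In 6 of the 85 groups of 4 or more mice searched, 1 mouse stood apart from the others of its group, where 4.25 would be expected by chance at 1 in 20. Genes given by mouse outside that choice, such as Ehhadh in the TH experiment, were not searched. The gap to the nearest mouse was 0.786 of the whole range for Acaa1a in BATKO mice on PTU (mouse 4 at 35.4 CPM, the others at 18.4 to 22.0). It was 0.896 for Cat in WT mice on PTU (mouse 4 at 1069 CPM, the others at 1314 to 1343) and 0.890 for Crot in CTRL mice on HFD (mouse 10 at 45.3 CPM, the others at 53.0 to 54.0). The other cases were Pex13 in 3 groups. They were 0.799 in BATKO mice after TH (mouse 15 at 94.1 CPM, the others at 56.2 to 63.8), 0.899 in CTRL mice at 30 °C (mouse 22 at 63.3 CPM, the others at 48.4 to 49.9) and 0.877 in BATKO mice at 4 °C (mouse 12 at 83.4 CPM, the others at 112 to 116).

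The 24 h response to TH differed between BATKO and WT mice by the edgeR test of the difference itself for 6 genes. BATKO minus WT, the log2 difference was -1.08 for Abcd3 (adjusted p = 0.0008), -0.80 for Acaa1a (adjusted p = 0.0367), 0.76 for Cat (adjusted p = 0.00781), 0.69 for Pex13 (adjusted p = 0.00622), 0.68 for Pex3 (adjusted p = 0.00222) and 0.67 for Scp2 (adjusted p = 0.0177). Acaa1a of BATKO PTU mouse 4 is the mouse named above, and without it the difference was -0.59 (adjusted p = 0.0905). The cold response differed between BATKO and CTRL mice for Pex6, by -1.32 (adjusted p = 0.0367).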

How the results depend on the processing

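Of the 86 calls of the 29 genes over all comparisons, 66 were kept under every alternative, 20 were lost under one or more, and 0 reversed. In the cold 39 of 42 calls were kept, and in the WT course 23 of 36. At 6 h the fit of the 2 groups alone called 11 genes, against 7. For BATKO against CTRL at 4 °C (1 called), DESeq2 called 6, RLE scaling 3, no filter 2, leaving out mitochondrial genes 3 and the 2 groups alone 0. For the difference of cold responses (1 called), DESeq2 called 3. For HFD in CTRL mice (0 called), DESeq2 called 2 and no filter 4, and in BATKO mice (0 called) DESeq2 called 2. The causes were not tested. Leaving out 1 mouse gave 3 to 5 calls at 3 h, 5 to 8 at 6 h, 9 to 17 at 12 h, 9 to 14 at 24 h, 4 to 8 for the difference of 24 h responses, 21 to 23 in the cold in CTRL and 18 to 21 in BATKO mice, 0 to 3 for genotype at 4 °C, 0 to 3 for the difference of cold responses and 0 to 1 for HFD in CTRL mice. Beyond the mice left out, the call was lost for Pex2 at 12 h (no filter, or mitochondrial genes left out), Ehhadh at 24 h, Decr2 in BATKO mice in the cold and Abcd2 at 4 °C (the 2 groups alone), and Pex11g in BATKO mice in the cold (no filter). No paired analysis was possible because no mouse was in more than one group, and the mouse numbers that recur between genotypes name different mice. Genes under about 10 counts per mouse, such as Acox2 in the temperature and diet experiments, are limited by depth.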
